A study of Arabidopsis thaliana with 12 samples.

Results

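The choice between the strands of miRNA hairpins was compared between AGO1-bound and total small RNA in wild-type Arabidopsis thaliana (Col-0). A hairpin was taken where the deposited files list a mature entry from each arm, 5p and 3p. There were 73 such hairpins. Hairpins that share a mature entry cannot be counted apart, so they were joined into 56 linked sets, which hold 126 of the 240 entries listed in the series. The sets also take in hairpins with only 1 arm listed that share an entry with these, 90 hairpins in all. In such sets, a change in the mix of hairpins cannot be told apart from a change in strand choice. All reads of the 5p entries and all reads of the 3p entries of a set were summed within each library. The wild-type libraries are 6 of the 12 in the series. In 4 of them, small RNA was recovered with GFP-Trap from roots of plants aged 9 days that carry GFP-AGO1. The transgene was driven by the ACL5 promoter (metaxylem and procambia, 2 libraries) or by the EN7 promoter (endodermis, 2 libraries). The other 2 hold total small RNA of whole seedlings aged 14 days, for which the labels name no transgene. Replicates are numbered libraries of a group. Whether they came from separate plants or transgenic lines is not given in the sources used here, so p-values measure the spread between these libraries, which may be technical. Roots were set against whole seedlings, 9 days against 14 days, and bound against total RNA, and these 3 differences cannot be told apart. Results are therefore given as ratios and shares within a library. In such bulk samples, fewer cells of a type and less RNA per cell cannot be told apart either. No control immunoprecipitation was analysed here.

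A plant miRNA hairpin is cut by DICER-LIKE1 into a duplex of 2 strands. One strand, the guide, is kept by an ARGONAUTE protein and directs it to complementary mRNAs, while the partner strand (the star strand) is usually removed and degraded. AGO1 carries most plant miRNAs, and other ARGONAUTE proteins such as AGO2, AGO7 and AGO10 take particular duplexes or strands. The guide can lie on either arm: miR160, miR164 and miR168 guides come from the 5p arm, and miR159, miR165 and miR166 guides from the 3p arm. Small RNAs of plants are known to be sorted among ARGONAUTE proteins in part by their first base; mature sequences and first bases were not analysed here.

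Values are reads per 1000000 reads (RPM). The AGO1-bound libraries had denominators of 5804745 to 7860329 reads, and listed miRNAs made up 25.1% to 37.2% of them. The seedling libraries had denominators of 13769316 and 15634840 reads, of which listed miRNAs made up 2.45% and 2.12%. A count of at least 3 reads, taken as the floor, was 0.382 to 0.517 RPM in AGO1-bound and 0.192 to 0.218 RPM in seedling libraries. Of the 56 sets, 29 had a mean of at least 5 RPM over both arms in each of the 3 groups and were tested. Their log2 ratio of 5p to 3p differed between replicates by a median of 0.65 in ACL5, 1.31 in EN7 and 0.43 in seedlings. The EN7 libraries thus stood apart from each other more than the replicates of the other groups did. Calls are therefore also given for the ACL5 libraries alone.

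The more abundant arm was usually the same in bound and in total RNA. It was the same arm in all 6 libraries for 24 of the 29 sets, the 5p arm in 10 and the 3p arm in 14. It was opposite for 2 sets, miR168a/b and miR472, and differed among libraries of 1 kind for the remaining 3. The share of the minor arm differed in many sets, in both directions. The strand ratio differed between AGO1-bound and total RNA in 16 of 29 sets, which is 55.2% of those tested (limma on log2 ratios with 0.5 RPM added to each arm, Benjamini-Hochberg adjusted p under 0.05). The ratio of 5p to 3p was higher in AGO1-bound RNA in 8 sets (27.6%) and lower in 8 sets (27.6%). In 20 sets (69%) the log2 ratios of the 4 AGO1-bound libraries did not overlap those of the 2 seedling libraries. For 1 of these, miR399b/c, the 5p arm had no reads in the bound libraries and in seedling replicate 1. Its separation thus followed the level of the 3p arm over the 0.5 RPM added.

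The arms were also named minor or major by a source outside these 6 libraries, the total RNA of ktn1-20 mutant seedlings. The median minor-arm share over the 29 sets was 3.88% and 3.53% in the ACL5 libraries and 1.97% and 1.90% in the EN7 libraries. It was 6.53% and 8.87% in the seedling libraries. Every AGO1-bound library thus had a lower median than either seedling library. The minor arm made up less than 1% of its set in 10 and 11 sets of the ACL5 libraries, 13 and 13 sets of the EN7 libraries and 5 sets of each seedling library. Summed over the sets, minor arms held 0.898% to 2.37% of reads in AGO1-bound RNA and 3.52% and 4.59% in total RNA. This sum is weighted by abundance, so it also moves with the mix of sets and does not measure strand choice alone. The lower minor-arm share was not uniform over sets. The minor arm was lower in AGO1-bound RNA in 17 sets and higher in 12. Among the 16 sets that passed the test it was lower in 11 and higher in 5. The names did not always hold in wild type. For miR157a/b/c, counted as lower, the arm named minor was the major one in both seedling libraries (mean 67.9%), and for miR829 in 1. For miR168a/b, counted as higher, it was the 5p guide.

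With the ACL5 libraries alone against seedlings, 14 of the 16 sets still passed, and miR390a/b and miR165a/b did not. The log2 difference was then 6.06 for miR160a/b/c, 5.80 for miR164c, 3.67 for miR164a/b, 3.13 for miR173, 3.18 for miR824 and 2.35 for miR846. It was 1.88 for miR168a/b and 2.03 for miR162a/b. On the other side it was -6.47 for miR159b, -5.92 for miR472, -3.17 for miR166, -2.83 for miR167c, -2.24 for miR399b/c and -1.40 for miR403. Adjusted p-values of these 14 sets lay between 0.00013 and 0.018 (limma).

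**Figure D1:**
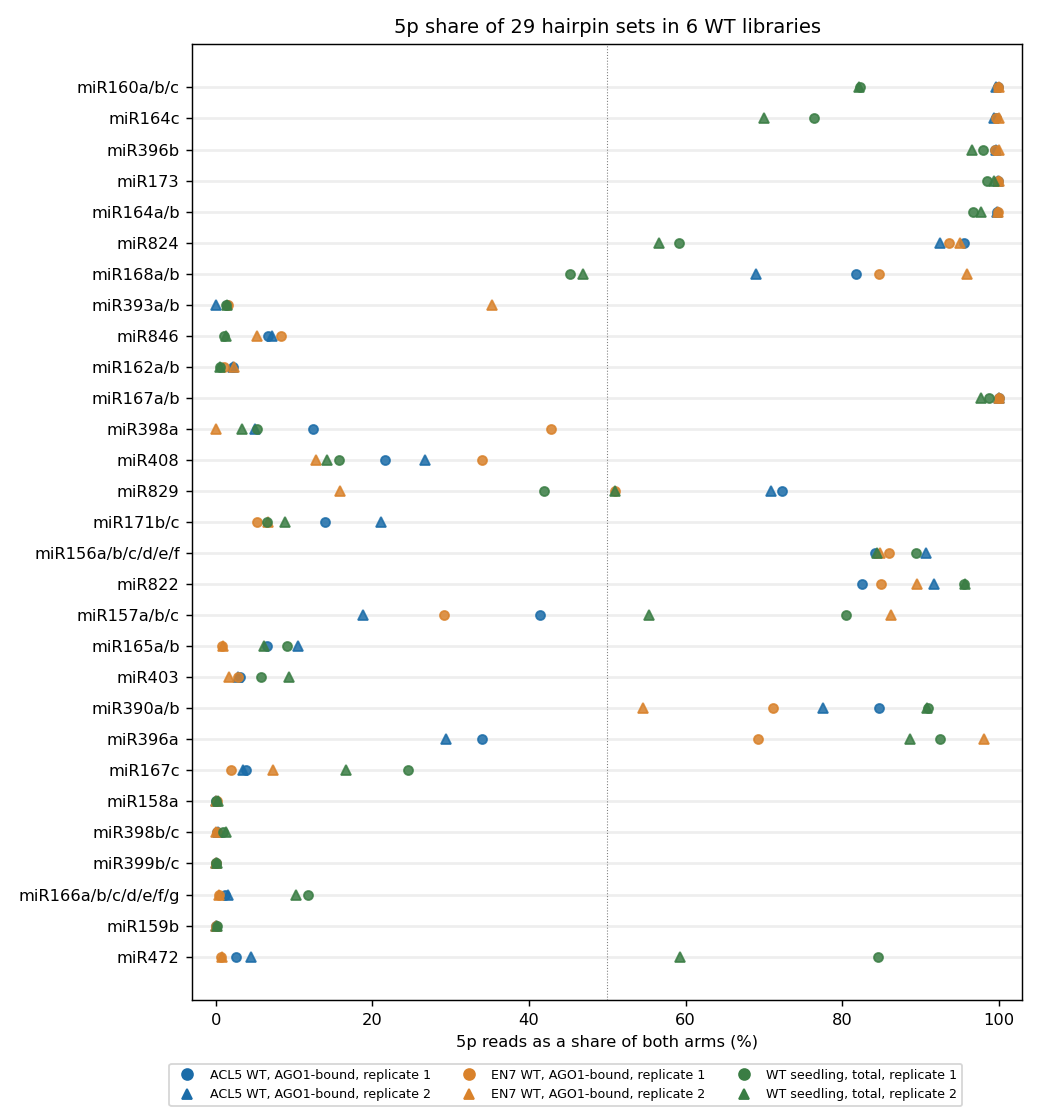
The share of 5p reads in both arms (x axis, %) is plotted for the 29 tested sets (y axis, ordered by the difference between AGO1-bound and total RNA) in each of 6 wild-type libraries, 1 point per library, with colour for the group and shape for the replicate. The dotted line marks equal arms; miR168a/b and miR472 have the AGO1-bound and total libraries on opposite sides of it, and the EN7 replicates lie far apart for miR157a/b/c, miR396a and miR398a.

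Among regulators of transcription factors with a 5p guide, miR160a/b/c, miR164c and miR164a/b held a smaller share of their 3p partner in AGO1-bound RNA, while miR156, miR157a/b/c (log2 difference -1.50, limma, adjusted p = 0.341) and miR396a did not pass. The miR160a/b/c set (AT2G39175, AT4G17788 and AT5G46845) targets the auxin response factors ARF10, ARF16 and ARF17. Its 3p share was 0.164% and 0.397% in ACL5, 0.178% and 0 in EN7, and 17.8% and 17.9% in seedlings. All 4 bound libraries were far below both seedling libraries, at 0 to 11 reads of the 3p arm against 125 and 161. The log2 ratio of 5p to 3p was 6.85 higher in AGO1-bound RNA (SE 1.00, limma, adjusted p = 0.0038). No 3p entry of miR160b is listed. miR160a-3p held 71.2% and 65.8% of the 3p arm in seedlings and was at 0 in all 4 bound libraries.

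miR164 targets NAC genes that include CUP-SHAPED COTYLEDON1 and CUP-SHAPED COTYLEDON2. The miR164c hairpin (AT5G27807) had a 3p share of 0.358% and 0.647% in ACL5, 0.426% and 0 in EN7, and 23.7% and 30.0% in seedlings. The bound and total libraries did not overlap, and the log2 ratio was 5.98 higher in AGO1-bound RNA (SE 0.49, limma, adjusted p = 0.00042). In simulated data this set was among those most often called without a change, so its adjusted p is likely too small. The seedling shares rest on 224 and 253 reads of both arms, with exact 95% binomial intervals of 18.2% to 29.8% and 24.5% to 36.1%. For miR164a/b (AT2G47585 and AT5G01747), whose 5p arm was more abundant, the 3p share was 0.104% to 0.266% in the AGO1-bound libraries and 3.25% and 2.26% in seedlings. The log2 ratio was 3.73 higher in AGO1-bound RNA (SE 0.44, limma, adjusted p = 0.0016). No 3p entry of miR164a is listed, so this share sets miR164b-3p against the 5p reads of both hairpins and is not compared with that of miR164c. The calls of miR160a/b/c, miR164c and miR164a/b held when any single library was left out.

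Among regulators of transcription factors with a 3p guide, the 5p partner took a smaller share of the miR166 and miR159b sets when bound, the miR165a/b set was split by root line, and miR171b/c did not pass. miR165 and miR166 target the HD-ZIP III genes, which pattern the root vasculature. Only 3 of the 7 hairpins from miR166a to miR166g have a listed 5p entry, while the 3p entry covers all 7. In this set, the 5p share was 1.21% and 1.53% in ACL5, 0.410% and 0.407% in EN7, and 11.8% and 10.3% in seedlings. Both lines lay below the seedlings, and EN7 below ACL5. The log2 ratio of 5p to 3p was lower by 4.04 in AGO1-bound RNA (log2 difference -4.04, SE 0.33, limma, adjusted p = 0.00042), and the call held without any single library. The 2 partner entries of this set did not move equally. The entry of miR166e-5p made up 26.3% and 21.9% of the 5p arm in ACL5, 14.6% and 15.5% in EN7 and 9.23% and 7.44% in seedlings.

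The closely related miR165a/b set (AT1G01183 and AT4G00885) differed between the root lines instead. Its 5p share was 6.59% and 10.5% in ACL5, 0.820% and 0.882% in EN7, and 9.14% and 6.08% in seedlings. No 5p entry of miR165b is listed, so the 5p reads of miR165a stand against the 3p reads of both hairpins. The ACL5 and seedling libraries overlapped, and only the EN7 libraries were low. The log2 difference between AGO1-bound and total RNA was -1.56 (SE 0.44, limma, adjusted p = 0.029), but with ACL5 alone it was 0.14 (adjusted p = 0.747) and with EN7 alone -3.27 (adjusted p = 0.015). Left without any single ACL5 or seedling library, the pooled difference was -1.87 to -1.25 (adjusted p up to 0.200). Between the 2 lines, miR165a/b was the only set of 29 (3.45%) whose ratio differed, by 3.41 higher in ACL5 (SE 0.50, limma, adjusted p = 0.023). This call was lost without either ACL5 library or either seedling library (adjusted p of 0.0854 to 0.281). For the miR166 set, the layer difference was 1.75 (SE 0.39, adjusted p = 0.076).

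miR159 targets the GAMYB-like genes MYB33 and MYB65. The 5p arm of miR159b (AT1G18075) had 1 and 0 reads in the ACL5 libraries and 0 in both EN7 libraries, beside 140094 to 302167 reads of the 3p arm. In seedlings, at 50482 and 49673 reads of the 3p arm, the 5p arm had 61 and 51 reads, a share of 0.121% and 0.103%. Deeper counts of this duplex thus held almost no partner strand in AGO1-bound RNA; a count of 0 allows a 5p share of up to 0.00126% to 0.00214% in the libraries without a read. The log2 ratio differed by -6.22 (SE 0.41, limma, adjusted p = 0.00037), and this size depends on the value added to each arm. With 0.1 percentage points added to each share, it was -1.08 (adjusted p = 0.0012).

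miR167 targets ARF6 and ARF8, and its hairpins differed in their major arm. For miR167c (AT3G04765), the 3p arm was the major one, and the 5p share was 3.88% and 3.53% in ACL5, 1.97% and 7.28% in EN7, and 24.5% and 16.7% in seedlings. The bound libraries lay below both seedling libraries, which rest on 204 and 414 reads of both arms. The log2 difference was -2.80 (SE 0.69, limma, adjusted p = 0.022). The call was lost without any single ACL5 or seedling library (differences of -3.15 to -2.45, adjusted p up to 0.153) and with EN7 alone (-2.78, adjusted p = 0.083). For miR167a/b (AT3G22886 and AT3G63375), the 5p arm was the major one. No 3p entry is listed for the 4 AGO1-bound libraries, and it was taken as 0 beside 262 to 1087 reads of the 5p arm. The seedling libraries had 69 and 151 reads of the 3p arm, or 1.22% and 2.36%. The difference of 1.39 did not pass (SE 0.60, limma, adjusted p = 0.093). If the missing entries stand for counts of 0, they allow a 3p share of up to 0.276% to 1.15%. With 0.1 percentage points added to each share, the difference was 4.19 and passed (limma, adjusted p = 0.0012).

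The miRNAs that act on the silencing pathway itself went both ways. miR168 targets the mRNA of AGO1. Reads of its 5p guide made up 81.8% and 69.0% of the miR168a/b set (AT4G19395 and AT5G45307) in ACL5, 84.7% and 96.0% in EN7, and 45.2% and 46.9% in seedlings. The guide was the major strand in every AGO1-bound library and the minor strand in both seedling libraries. The log2 ratio of 5p to 3p was 2.79 higher in AGO1-bound RNA (SE 0.73, limma, adjusted p = 0.026). miR403 targets the mRNA of AGO2 from its 3p arm, and its 5p share (AT2G47275) was 3.08% and 2.86% in ACL5, 2.78% and 1.67% in EN7 and 5.75% and 9.40% in seedlings. Every bound library was below both seedling libraries, with a log2 difference of -1.63 (SE 0.47, limma, adjusted p = 0.031).

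miR162, which targets the mRNA of DICER-LIKE1 from its 3p arm, held more partner strand when bound. The 5p share of miR162a/b (AT5G08185 and AT5G23065) was 2.22% and 2.22% in ACL5, 0.988% and 2.27% in EN7, and 0.468% and 0.482% in seedlings. All bound libraries were above both seedling libraries, and the log2 ratio of 5p to 3p was 1.74 higher (SE 0.48, limma, adjusted p = 0.029). The calls of miR168a/b, miR403 and miR162a/b were each lost when any single ACL5 or seedling library was left out. Without such a library, adjusted p-values were up to 0.151, 0.266 and 0.167, and the differences lay from 2.54 to 3.04, from -2.01 to -1.25 and from 1.72 to 1.76. With EN7 alone against seedlings, miR403 (adjusted p = 0.089) and miR162a/b (adjusted p = 0.129) did not pass either.

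The triggers of trans-acting small interfering RNAs differed from each other. miR173 (AT3G23125) starts the cleavage of TAS1 and TAS2 transcripts through AGO1. Its 3p share was 0.0726% and 0.139% in ACL5, 0.0671% and 0.0158% in EN7, and 1.50% and 0.655% in seedlings. The 3p arm had 2 to 4 reads in each bound library and 11 and 5 in the seedling libraries, so the groups did not overlap but the minor counts were low. The log2 ratio was 3.94 higher in AGO1-bound RNA (SE 0.68, limma, adjusted p = 0.0062), and the call was lost without seedling replicate 1 (3.66). The 3p arm lay at 0.288 to 0.509 RPM in bound and at 0.799 and 0.320 RPM in seedling libraries, near the 0.5 RPM added. The size of the difference thus depends on the value added and on the level of the 5p arm. With 0.1 percentage points added to each share, the difference was 2.72 (limma, adjusted p = 0.0066).

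miR390, which acts on TAS3 with AGO7 rather than AGO1, went the other way. The share of its 3p partner (AT2G38325 and AT5G58465) was 15.3% and 22.4% in ACL5, 28.9% and 45.5% in EN7, and 9.02% and 9.15% in seedlings. Every AGO1-bound library held a larger share of the partner than either seedling library. The log2 ratio of 5p to 3p was lower by 1.81 (log2 difference -1.81, SE 0.53, limma, adjusted p = 0.031). The call was lost when any single ACL5 or seedling library was left out (differences of -1.98 to -1.64, adjusted p up to 0.215), and with ACL5 alone the difference was -1.14 (adjusted p = 0.055).

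Lineage-specific miRNAs of Arabidopsis and its relatives went both ways. miR472 (AT1G12294) targets disease resistance genes of the CC-NBS-LRR class. Its 5p share was 2.56% and 4.47% in ACL5, 0.674% and 0.847% in EN7, and 84.5% and 59.3% in seedlings. The 3p arm thus dominated every bound library and the 5p arm both seedling libraries. The log2 difference was -6.92 (SE 0.63, limma, adjusted p = 0.00049), and it held without any single library. With 0.1 percentage points added to each share it was -7.32 (adjusted p = 0.00098). In simulated data this set was often called without a change, so its adjusted p is likely too small. The seedling values are imprecise, at 84 and 86 reads of both arms, with exact 95% binomial intervals of 75.0% to 91.5% and 48.2% to 69.8%. The bound libraries held 671 to 2008 reads.

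miR824 (AT4G24415) targets the MADS-box gene AGL16. Its 3p share was 4.51% and 7.48% in ACL5, 6.35% and 5.0% in EN7, and 40.8% and 43.4% in seedlings. The bound libraries were far below the seedlings, and the log2 ratio of 5p to 3p was 3.15 higher (SE 0.49, limma, adjusted p = 0.0043). miR846 (AT1G61226) targets jacalin-like lectin genes from its 3p arm. Its 5p share was 6.64% and 7.18% in ACL5, 8.33% and 5.19% in EN7, and 1.04% and 1.28% in seedlings. Here the partner took a larger share in every bound library, with a log2 difference of 2.31 (SE 0.43, limma, adjusted p = 0.0081). Without either seedling library, miR824 had differences of 3.07 and 3.22 (adjusted p of 0.0731 and 0.0841) and miR846 of 2.47 and 2.16 (adjusted p of 0.0731 and 0.148).

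miR399, which targets PHO2 during phosphate starvation, passed the test on almost no partner reads. The 5p arm of miR399b/c (AT1G63005 and AT5G62162) had 0 and 2 reads in seedlings. No 5p entry is listed for the 4 bound libraries, where it was taken as 0. The 3p arm had 1975 to 22412 reads in bound and 1272 and 1046 in seedling libraries. The log2 difference of -3.32 (SE 0.75, limma, adjusted p = 0.017) followed the level of the 3p arm, since 0.5 RPM was added to an arm at or near 0. With 0.1 percentage points added to each share, it was -0.77 (adjusted p = 0.288), and it was also lost without any single ACL5 or seedling library (adjusted p up to 0.116).

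**Figure D2:**
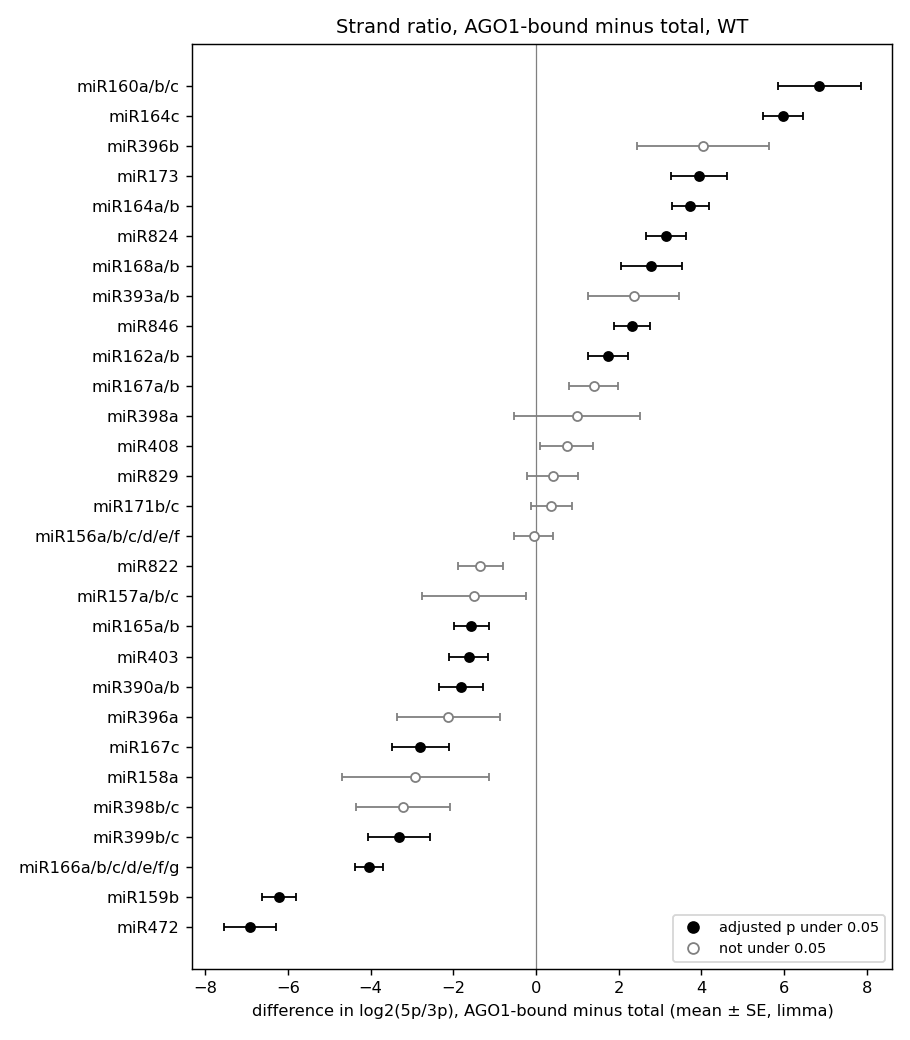
The difference in log2(5p/3p) between the 4 AGO1-bound and the 2 total libraries (x axis, mean ± SE from limma) is shown for the 29 tested sets (y axis). Filled points have an adjusted p under 0.05; they run from -6.92 for miR472 to 6.85 for miR160a/b/c, with 8 on each side of 0.

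Other sets followed for their known roles did not pass, and several were split by library. miR396 targets growth-regulating factors, and its hairpins miR396a (AT2G10606) and miR396b (AT5G35407) stood apart from each other. For miR396a, the 3p share was 66.0% and 70.6% in ACL5, 30.8% and 1.90% in EN7, and 7.58% and 11.3% in seedlings. The partner was the major strand in both ACL5 libraries and the minor strand elsewhere. Pooled over the lines, the log2 difference was -2.12 (SE 1.25, limma, adjusted p = 0.194). It was -4.37 for ACL5 alone (adjusted p = 0.00064) and 0.13 for EN7 alone (adjusted p = 0.945), and the difference between the lines did not pass (-4.49, SE 1.45, adjusted p = 0.191). Without EN7 replicate 1 the pooled difference was -1.01, and without EN7 replicate 2 it was -3.23. Each of these fits leaves 1 EN7 library, so the spread between the EN7 replicates is outside them.

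For miR396b, the 3p share was 0.445% and 0.324% in ACL5, 0.519% and 0.0035% in EN7, and 2.02% and 3.43% in seedlings. The groups did not overlap, but the 2 reads of the 3p arm in EN7 replicate 2 widened the spread, and the difference of 4.04 did not pass (SE 1.59, limma, adjusted p = 0.077). Without EN7 replicate 1 it was 5.49 and without EN7 replicate 2 it was 2.59. Each of these fits leaves 1 EN7 library, so the spread between the EN7 replicates is outside them. With all libraries and 0.1 percentage points added to each share, the difference was 3.01 (limma, adjusted p = 0.015).

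miR393 targets the auxin receptor TIR1 and related F-box genes, and the 3p strand of miR393b is known to be carried by AGO2. The 5p share of miR393a/b (AT2G39885 and AT3G55734) was 1.41% and 0 in ACL5, 1.55% and 35.3% in EN7, and 1.28% and 1.40% in seedlings. The high value of EN7 replicate 2 is 6 of 17 reads, with an exact 95% interval of 14.2% to 61.7%. The difference did not pass (2.36, SE 1.11, limma, adjusted p = 0.114), and it was 1.39 without that library. With 0.1 percentage points added to each share, the difference was 0.41 (limma, adjusted p = 0.886). Both arms were scarce in the bound libraries. The entry of miR393b-3p was at 17.7 and 11.0 RPM in ACL5, 12.6 and 1.58 RPM in EN7, and 182 and 208 RPM in seedlings.

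miR408 (AT2G47015), a copper-responsive miRNA that targets laccases and plantacyanin, had a 5p share of 21.6% and 26.7% in ACL5, 34.0% and 12.8% in EN7 and 15.7% and 14.2% in seedlings. EN7 replicate 2 lay below the seedlings and the other bound libraries above. The difference was 0.74 (SE 0.64, limma, adjusted p = 0.341), and without EN7 replicate 2 it was 1.20. miR171 targets SCARECROW-LIKE genes, and the 5p share of miR171b/c (AT1G11735 and AT1G62035) was 14.0% and 21.1% in ACL5, 5.29% and 6.65% in EN7 and 6.53% and 8.87% in seedlings. The EN7 and seedling libraries overlapped, and the difference was 0.37 (SE 0.49, limma, adjusted p = 0.540).

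Summing the entries of an arm hid exchanges between partner strands of sister hairpins. The miR156 set, whose 5p guide targets SPL genes of the juvenile phase, had overlapping strand ratios in bound and total RNA, at 84.2% to 90.8% 5p in the bound libraries and 89.4% and 84.4% in seedlings (log2 difference -0.053, SE 0.47, limma, adjusted p = 0.915). The 3p arm, however, held different entries. The partner miR156b-3p (AT4G30972) was at 538 and 288 RPM in ACL5, 239 and 195 RPM in EN7, and 5.45 and 12.5 RPM in seedlings. It made up 99.2% to 99.8% of the 3p arm in the bound libraries and 4.73% and 6.40% in seedlings. The partners of the sister hairpins were the reverse. miR156a-3p had 0, 0, 0 and 3 reads in the 4 bound libraries and lay at 41.7 and 80.1 RPM in seedlings. miR156c-3p had 3, 3, 0 and 0 reads there and lay at 67.8 and 102 RPM in seedlings.

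The same was tested with each pair of a 5p and a 3p entry as a unit, of which 25 of 39 passed. Against the shared miR156 guide, the ratio of 5p to 3p was higher in AGO1-bound RNA by 7.82 for miR156c-3p (SE 0.43, limma, adjusted p = 7.2e-05) and by 7.55 for miR156a-3p (SE 0.56, adjusted p = 0.00012). It was lower for miR156b-3p (log2 difference -4.14, SE 0.52, limma, adjusted p = 0.00084). These pairs share the guide entry, so they are not independent of each other, and miR156 was singled out after its values were seen.

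Partners of miR168 and miR390 also split by hairpin. The entry of miR168a-3p was at 10.2 and 12.2 RPM in ACL5, 18.1 and 7.20 RPM in EN7, and 43.9 and 41.8 RPM in seedlings. miR168b-3p was at 86.0 and 119 RPM in ACL5, 42.8 and 1.15 RPM in EN7, and 12.4 and 9.53 RPM in seedlings. In RPM, the first was thus lower in all bound libraries, and the second was higher in 3 of 4 and lower in EN7 replicate 2. The RPM of the median family was itself 2.12 higher in bound RNA on the log2 scale, so RPM alone does not show a gain of miR168b-3p. Within the 3p arm, miR168b-3p held 89.4% and 90.7% in ACL5, 70.3% and 13.8% in EN7, and 21.9% and 18.6% in seedlings. The ratio of guide to miR168a-3p was 4.58 higher in AGO1-bound RNA (SE 0.50, limma, adjusted p = 0.00046), and that to miR168b-3p differed by 1.34 (SE 1.12, adjusted p = 0.311). miR390a-3p, at 54.4 and 26.9 RPM in ACL5, 36.8 and 58.3 RPM in EN7 and 7.92 and 8.51 RPM in seedlings, carried the rise of the miR390 partner (pair difference -2.0, SE 0.54, limma, adjusted p = 0.022). The pair with miR390b-3p, which was absent or at 1 read in bound libraries and at 0.944 and 1.54 RPM in seedlings, differed by 1.99 in the opposite direction (SE 0.63, limma, adjusted p = 0.034).

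**Figure D3:**
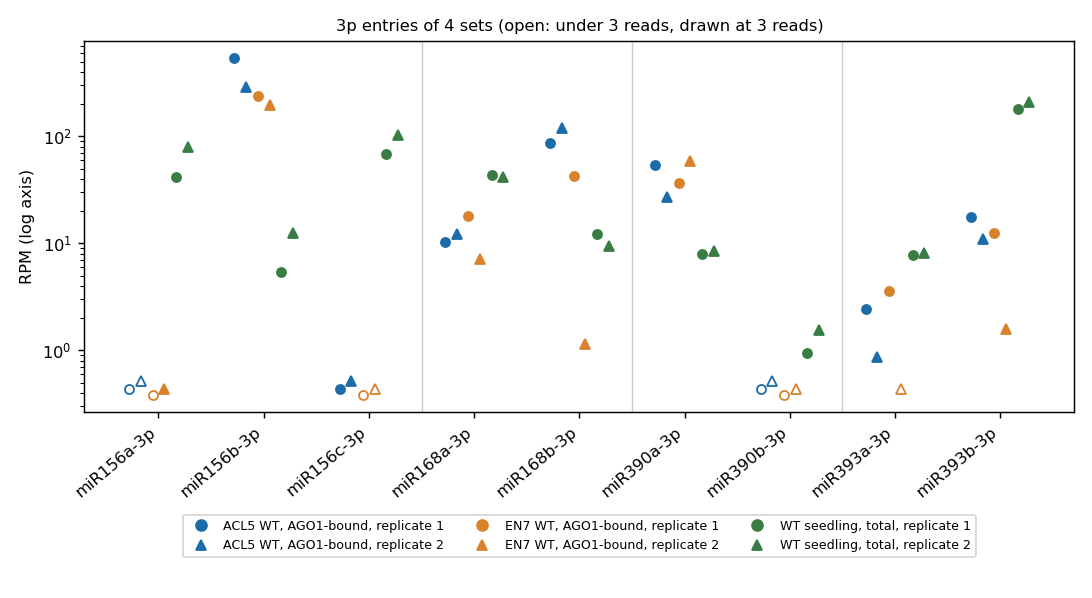
RPM (y axis, log scale) of single 3p entries of the miR156, miR168, miR390 and miR393 sets is shown in 6 wild-type libraries, 1 point per library; open points had under 3 reads and are drawn at the level of 3 reads. In the bound libraries miR156b-3p is at 195 to 538 RPM, while miR156a-3p and miR156c-3p are at or under 3 reads there and at 41.7 to 102 RPM in seedlings.

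The 27 sets that were not tested fell short of 5 RPM in at least 1 group. Among them, miR170/miR171a (AT5G66045 and AT3G51375) had a 5p share of 95.7% and 95.5% in EN7, and 79.8% and 69.3% in seedlings. The EN7 shares rest on 23 and 22 reads of both arms, with 1 read of the 3p arm in each library. No 3p entry is listed for the ACL5 libraries, and taken as 0 beside 85 and 82 reads of the 5p arm, it gives a 5p share of 100% in both. miR840 (AT2G02741), singled out after its values were seen, was the third set with opposite major arms. Its 5p share was 29.3% and 39.7% in ACL5, 15.3% and 12.0% in EN7, and 56.8% and 54.2% in seedlings, on 44 and 59 reads of both arms in seedlings. The intervals of the seedling shares, 41.0% to 71.7% and 40.8% to 67.3%, include equal arms.

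The families that filled the libraries also differed between bound and total RNA. The miR159, miR158 and miR165/miR166 families were the top 3 of every AGO1-bound library and held 68.9% to 77.7% of the summed miRNA RPM. In seedlings miR159 and miR158 led as well, followed by miR398 or miR161, and the top 3 held 62.6% and 58.5%. Of 134 families, 42 had a share of at least 0.05% in 1 group and were tested. The share differed for 30 of them, which is 71.4% (limma on log2 of the share plus 0.01%, Benjamini-Hochberg adjusted p under 0.05). It was higher in AGO1-bound RNA for 6 (14.3%) and lower for 24 (57.1%), around a median log2 difference of -1.47 over all 42. In 31 families (73.8%) the bound and total libraries did not overlap. On RPM in place of shares, the split turned to 25 higher and 6 lower around a median of 2.12, with listed miRNAs at 25.1% to 37.2% of the bound and 2.45% and 2.12% of the seedling libraries. Relative to the median family of its scale, each of the 19 named families lay on the same side under both scales. Apart from the values added, the change of scale moves all families by the same amount, so this sameness is no check.

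The families with a higher share in AGO1-bound RNA were led by 2 regulators of development. miR319, which targets TCP genes of leaf growth, made up 12.0% and 11.3% in ACL5, 2.87% and 7.91% in EN7, and 1.10% and 1.32% in seedlings. All bound libraries exceeded both seedling libraries (log2 difference 2.62, SE 0.43, limma, adjusted p = 0.0011). It was 3.27 with ACL5 alone and 1.98 with EN7 alone, which did not pass (adjusted p = 0.055). miR165/miR166 made up 15.9% and 17.6% in ACL5, 40.4% and 32.7% in EN7, and 5.13% and 6.05% in seedlings, with a difference of 2.14 (SE 0.20, limma, adjusted p = 5.0e-05). miR395, induced by sulfate starvation, made up 0.707% and 1.37% in ACL5, 0.235% and 0.186% in EN7, and 0.0946% and 0.106% in seedlings (2.08, SE 0.44, limma, adjusted p = 0.0037).

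The other 3 higher families were small, at 0.0297% to 0.108% of the bound libraries. They were miR869 (1.82, SE 0.34, adjusted p = 0.0020), miR472 (1.10, SE 0.26, adjusted p = 0.0066) and miR5650 (0.99, SE 0.38, adjusted p = 0.047, limma for each). The share of miR472 rose with its 3p arm, which went from 0.944 and 2.24 RPM in seedlings to 110 to 287 RPM in the bound libraries, while its 5p arm was at 1.53 to 5.33 RPM in bound and 5.16 and 3.26 RPM in seedling libraries. Without either seedling library, miR395 (adjusted p of 0.078 and 0.060), miR472 (0.255 and 0.220) and miR5650 (0.314 and 0.283) were no longer called. miR5650 was lost without either ACL5 library too (adjusted p of 0.108 and 0.147).

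The families with the largest losses of share were miR5026 and miR393. miR5026 made up 1.23% and 1.31% of seedling miRNAs and 0.00157% to 0.0033% of the bound libraries (log2 difference -6.69, SE 0.23, limma, adjusted p = 3.5e-07). miR393 made up 0.785% and 1.03% in seedlings and 0.000658% to 0.00696% in the bound libraries (-6.00, SE 0.28, limma, adjusted p = 9.2e-07). For neither did the groups overlap. miR169, which targets NF-YA genes (-4.14, adjusted p = 5.1e-07), miR3932 (-4.05, adjusted p = 3.5e-07), miR394, which targets the F-box gene LCR (-3.88, adjusted p = 8.0e-06), and miR157 (-3.48, adjusted p = 0.0018) followed by limma. With 0.001% added in place of 0.01%, the miR169 and miR3932 differences were -6.26 and -6.83, so their sizes depend on that value. The bound shares of miR5026 and miR393 also lay below the 0.01% added. Over all alternatives run, their differences ranged from -8.55 to -3.74 and from -7.59 to -3.26.

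The copper-responsive miR398 and miR408 had lower shares in bound RNA. miR398 made up 0.793% and 1.66% in ACL5, 0.123% and 0.897% in EN7, and 8.11% and 6.08% in seedlings (-3.47, SE 0.77, limma, adjusted p = 0.0048). miR408 fell from 1.36% and 1.54% in seedlings to 0.0485% to 0.473% in bound libraries (-3.18, SE 0.59, limma, adjusted p = 0.0020). miR156 was lower as well, at 0.348% to 1.26% in bound and 4.45% and 5.92% in seedling libraries (-2.79, SE 0.38, limma, adjusted p = 0.00043).

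miR158 made up 15.0% and 13.1% in ACL5, 12.0% and 10.8% in EN7, and 22.9% and 20.0% in seedlings (-0.76, SE 0.19, limma, adjusted p = 0.0079), which lay 0.71 above the median family. It did not pass when shares were taken without miR165/miR166 (-0.38, adjusted p = 0.150) or without either seedling library (adjusted p of 0.176 and 0.076). miR168, at 0.0556% to 0.179% in bound and 0.420% and 0.457% in seedling libraries (-1.75, SE 0.44, limma, adjusted p = 0.0079), was also lost without either seedling library (adjusted p of 0.165 and 0.183). miR161, which targets pentatricopeptide repeat genes, made up 3.80% and 3.70% in ACL5, 9.85% and 3.06% in EN7, and 7.39% and 8.12% in seedlings, and did not pass (-0.77, SE 0.46, limma, adjusted p = 0.180). Without EN7 replicate 1 it was -1.19, and without EN7 replicate 2 it was -0.35. In family fits without an EN7 library, limma pooled the spread fully over families (infinite prior degrees of freedom). Their p-values would rest on a common spread and are not given. miR159 made up 38.7% and 38.2% in ACL5, 21.2% and 34.3% in EN7 and 31.5% and 30.4% in seedlings. It differed by 0.057 (SE 0.21, limma, adjusted p = 0.833), by 0.23 without EN7 replicate 1 and by -0.12 without EN7 replicate 2.

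By role, both tested F-box families (miR393, miR394) and both tested copper families were lower. Of 13 tested families that target transcription factors, 2 were higher, 7 were lower and 4 did not pass, with a median of -1.33 beside -1.47 over all 42. These counts and those of the other roles stand beside 14.3% higher and 57.1% lower among all 42 families. Of 3 families that act on silencing genes, 1 was lower (miR168) and 2 did not pass, and of 2 triggers of trans-acting small interfering RNAs, 1 was lower (miR390). Of 8 lineage-specific families, 2 were higher, 3 were lower and 3 did not pass, with a median of -0.25. A share and a strand ratio could move apart: the share of the miR160 family did not pass (log2 difference -0.20, SE 0.58, limma, adjusted p = 0.798), while its 3p partner held less than 1% of its set in bound RNA. Between the root lines, the share differed for 4 of the 42 families (9.52%). miR394 (2.12, SE 0.30, limma, adjusted p = 0.0078), miR395 (2.18, SE 0.50, adjusted p = 0.044) and miR164 (2.19, SE 0.53, adjusted p = 0.044) were higher in ACL5, and miR165/miR166 was lower (-1.12, SE 0.23, adjusted p = 0.038).

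**Figure D4:**
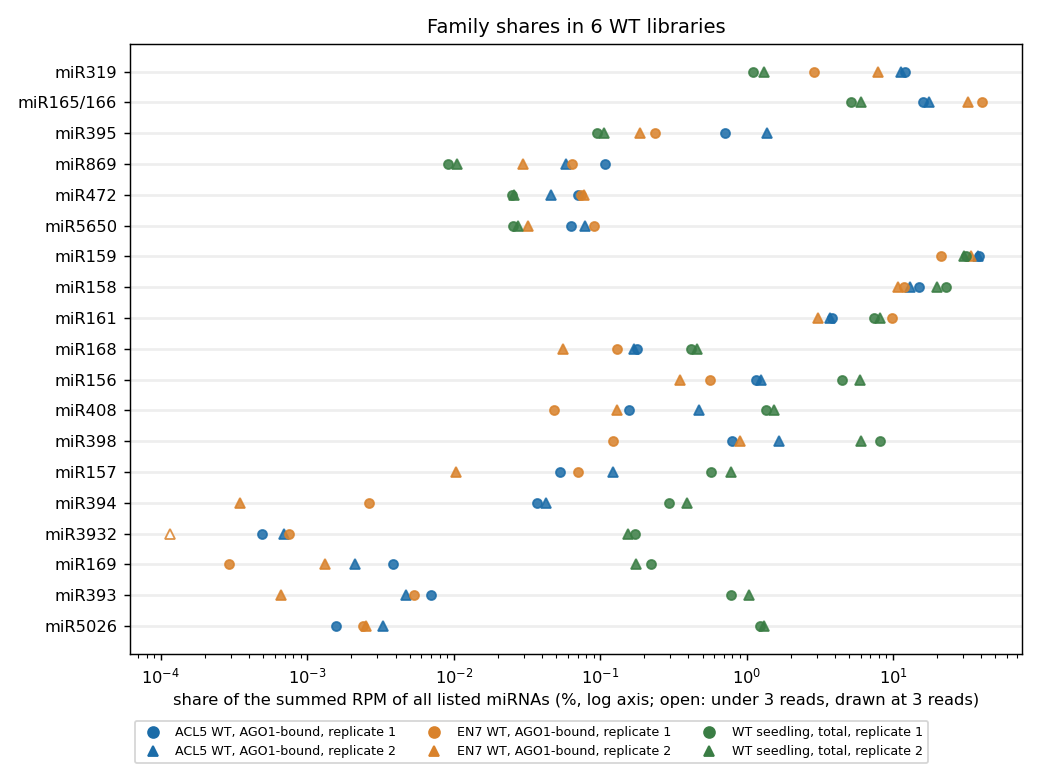
The share of each named family in the summed RPM of all listed miRNAs (x axis, %, log scale) is shown in 6 wild-type libraries, 1 point per library, ordered by the difference between AGO1-bound and total RNA; the open point had under 3 reads and is drawn at 3 reads. The families miR319 to miR5650 lie higher in the bound libraries, and miR393 and miR5026 lie more than 2 decades lower.

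The ktn1-20 libraries of the same lines and of seedlings share no library with the wild type and were fitted alone in the same way. KTN1 encodes the microtubule-severing subunit of katanin. Of the 29 sets, 26 could be tested there as well, and 15 of the 16 sets called in wild type were among them. All 15 had the same direction in ktn1, and 12 passed there too. Over the 26 sets, 21 had the same direction, and the differences had a Pearson correlation of 0.88 across sets, which share libraries and are not independent. For miR160a/b/c the difference was 7.08 in ktn1 (SE 0.69, limma, adjusted p = 0.00029), and for miR164c it was 5.10 (SE 0.74, adjusted p = 0.0016). For miR168a/b it was 5.39 (SE 0.52, limma, adjusted p = 0.00029), against 2.79 in wild type. The sets miR166 (-9.11) and miR165a/b (-7.38) were also farther from 0 in ktn1, and whether these differences differed between genotypes was not tested. miR162a/b (1.44, adjusted p = 0.054), miR167c (-1.84, adjusted p = 0.071) and miR390a/b (-2.34, adjusted p = 0.117) did not pass in ktn1. Of 26 families called in wild type and tested in both, 26 had the same direction in ktn1 and 23 passed.

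**Figure D5:**
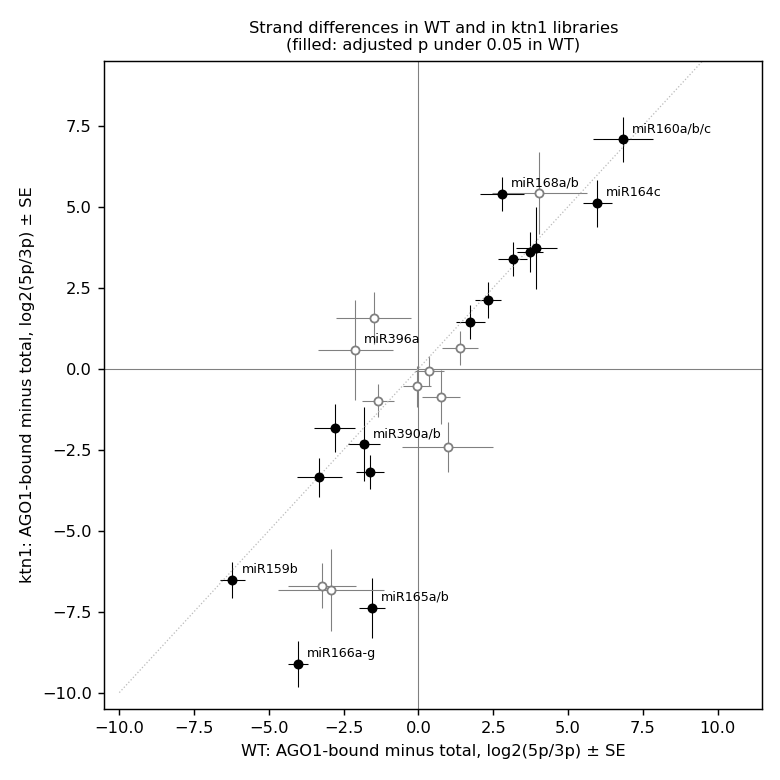
The difference in log2(5p/3p) between AGO1-bound and total RNA in ktn1 libraries (y axis, ± SE) is plotted against that in wild-type libraries (x axis, ± SE) for the 26 sets tested in both. The dotted line marks equal differences and filled points passed in wild type; all 15 of these lie on the same side of 0 on both axes.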

How the data were processed

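Small RNA libraries were made with a NEBNext small RNA kit and processed with cutadapt and Bowtie on TAIR10, per the submitters' processing notes and the labels; versions and the miRNA annotation are not given in the sources used here. The deposited values, made by the authors, were taken as RPM from their size, 1 file per library with 1 row per mature entry. Which reads the denominator counts is not stated. Every value above 0 was a whole multiple of the lowest value of its file (tolerance 0.1), which was taken as 1 read; reads inferred in this way gave depths, floors of 3 reads and exact (Clopper-Pearson) 95% intervals. Both describe counting error alone, because no molecular identifiers separate PCR copies from independent molecules. No count test was run. Entries missing from a file were taken as 0. Locus tags came from the RefSeq gene table of TAIR10.1, where all 90 hairpins matched.

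Strand ratios, log2((5p + 0.5 RPM)/(3p + 0.5 RPM)), and family shares, log2(share + 0.01%), were fitted over the 6 wild-type libraries with 1 mean per group in limma 3.58.1 (R 4.3.3, lmFit, contrasts and eBayes with a trend). The contrast was the mean of both AGO1 lines minus seedlings. Two-sided p-values were adjusted by the Benjamini-Hochberg method across all 29 sets or 42 families, and the threshold was 0.05. A family is the number of an entry's first name, with miR165 and miR166 as 1 family. An exact permutation test of 4 libraries against 2 cannot give a two-sided p below 0.133 and was not used. The fits were tested on simulated data, with the main settings kept as designed. There the strand-ratio fit made false calls at well above its nominal rate, most often for miR472, miR393a/b and miR164c, so its adjusted p-values are too small for such sets. With the pseudocount on shares, and in the family fit, false calls were slightly above the nominal rate. The simulated strand data gave every set the same added spread and kept the base share of each arm away from 0. These rates therefore do not cover sets with almost no minor arm, such as miR159b, miR399b/c and miR167a/b. Other steps used pandas 2.3.3, SciPy 1.17.1 and NumPy 2.4.6 under Python 3.11.15, and matplotlib 3.10.9 drew the plots.

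Sets were named if their adjusted p was under 0.05 (up to 10 in each direction) or if they hold miR165, miR166, miR168, miR171, miR390, miR393, miR396 or miR408. Families were named if among the 8 largest called differences in a direction, at a mean share of at least 5% in a group, or miR168. Others are said to be singled out or are given in counts. The members and lists were chosen with earlier results of these data known. Alternatives were other pseudocounts, filters, units and scalings, limma without a trend, a replicate block, the ktn1 libraries and leaving out each library; each root line alone, a pseudocount on shares and entries without summing were added after seeing the data.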

Additional observations from a re-analysis of the deposited data

Results flagged for a closer look

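Among the 4 AGO1-bound libraries, which pool both root lines, a gap of 1 library from the others exceeded Dixon's 95% critical value for 4 of 40 values tested; chance flags about 1 in 20. EN7 replicate 1 stood apart for miR162a/b, with a log2 strand ratio of -6.64, and for miR159b, with -15.12. The 5p arm of miR159b had 0 reads there, as in ACL5 replicate 2 and EN7 replicate 2. Its value thus followed the level of the 3p arm over the 0.5 RPM added. EN7 replicate 2 stood apart for miR396b, with 13.35, and for miR393a/b, with -0.61; these rest on 2 reads of miR396b-3p and 17 reads of miR393a/b.

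Differences between the ACL5 and EN7 lines were tested in the same limma fits and passed for miR165a/b and for 4 family shares. Of these shares, that of miR164 (2.19) falls outside the naming rule. The strand ratio of miR165a/b was 3.41 higher in ACL5. The family shares of miR394 and miR395 were 2.12 and 2.18 higher in ACL5 on the log2 scale, and that of miR165/miR166 differed by -1.12. The cause of these differences was not tested.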

How the results depend on the processing

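The count of sets with a different strand ratio was 16 of 29. It was 17 with 0.1 or 1 RPM added, 23 of 42 without the filter, 14 of 23 at a filter of 20 RPM, 16 without a variance trend, 16 of 26 in the ktn1 libraries, 18 with 0.1 percentage points added to each share, 21 of 30 for ACL5 alone and 13 for EN7 alone. With entry pairs as units it was 25 of 39, of more units. With 0.1 percentage points added to each share, miR399b/c was lost and miR398b/c, miR396b and miR167a/b were gained. Leaving out 1 library gave 6 to 23 calls, and 6 of the 16 named calls held in all 6 fits. These fits leave a group with 1 library, which is assumed to vary like the others. The count of sets that differed between the lines was 1, and it was 2 at a filter of 20 RPM, 2 with entry pairs, 2 with 0.1 percentage points added to each share and 0 to 12 with 1 library left out. The count of families was 30 of 42, 79 of 131 without the filter, 45 of 69 for single entries and 23 to 38 under the others; 12 of 17 named calls held without any single library.

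In the fit blocked on replicate number, 10 sets differed between bound and total RNA, 0 sets differed between the lines in limma (5 at an unadjusted p under 0.05) and 29 families differed. Same-numbered libraries deviated from their group means with correlations of -0.22, 0.16 and -0.57, so the numbers do not pair the libraries and only the count is given.

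Log2 differences changed sign for miR396a (0.57), miR408 (-0.88) and miR171b/c (-0.063) in the ktn1 libraries, and among sets not named by rule for miR157a/b/c (1.57) and miR398a (-2.41, adjusted p = 0.036 in ktn1). None of these 5 passed in wild type. They reversed for miR165a/b with ACL5 alone (0.14) and for miR396a (0.13) and miR171b/c (-0.47) with EN7 alone. On RPM in place of shares, miR398 (0.23), miR408 (0.44), miR156 (0.92), miR158 (2.97), miR161 (2.96) and miR168 (1.87) turned to higher in bound RNA, where the median family was 2.12 higher. The log2 difference of the miR159 share, 0.057, was -0.12 to 0.23 with 1 library left out, -0.35 in the ktn1 libraries and -0.20 with EN7 alone. Except for the change of scale, the cause of these reversals was not tested. Of the 126 shares of named sets, 8 had an exact interval wider than 10 percentage points, so depth limits mainly miR164c and miR472 in seedlings, miR167c in seedling replicate 1, miR171b/c and miR824 in ACL5 replicate 2 and miR393a/b in EN7 replicate 2.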

Other observations

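Some minor entries outside the named sets also changed place with a neighbour, and these were singled out after their values were seen. The hairpin of miR829 (AT1G32713) has 2 listed 3p products. miR829-3p.1 had 0 reads in all 4 AGO1-bound libraries and lay at 5.59 and 5.95 RPM in seedlings, while miR829-3p.2 held the whole 3p arm of the bound libraries and 23.0% and 10.6% of it in seedlings. With miR829-3p.1 as the 3p entry, the ratio of 5p to 3p was 3.15 higher in AGO1-bound RNA (SE 1.09, limma, adjusted p = 0.044 over 39 entry pairs), and with miR829-3p.2 the difference was -1.81 (SE 0.80, adjusted p = 0.085).

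miR172 targets APETALA2-like genes that act in the change from juvenile to adult growth. In the set of miR172a, miR172b and miR172e, the 3p guide of miR172e (AT5G59505) made up 54.1% and 66.7% of the 3p arm in ACL5, 68.4% and 67.3% in EN7, and 5.51% and 5.33% in seedlings. Levels were low in the bound libraries, at a mean of 2.75 RPM for miR172e-3p and 1.59 RPM for the entry shared by miR172a and miR172b-3p, and the exchange was not tested.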
